A study of Drosophila melanogaster with 18 samples.

Results

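The 10 genes described here make, order, trim and bind chitin in Drosophila melanogaster: mmy, kkv, rtv, knk, serp, verm, Cda4, Cda5, Cht2 and obst-E. They were taken from a list of symbols that was chosen with earlier results of these data known. The symbols were joined to the gene identifiers of the count tables, and all 10 were found among 17609 genes. Chitin is a polymer of N-acetylglucosamine that epithelial cells of insects secrete at their apical side, where it becomes part of the cuticle of the epidermis, trachea and foregut. The sugar is first activated to UDP-N-acetylglucosamine, a synthase in the plasma membrane then extrudes the chain, partner proteins order it, deacetylases alter it, chitinases cut it and chitin-binding proteins hold it in the matrix. S2 cells, a line of embryonic origin with hemocyte-like properties, are not a cuticle-forming epithelium.

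The study measured polyadenylated RNA of S2 cells made to express one of 3 transcription factors by adding copper sulphate to the medium, with cells harvested 48 h later. Grh (Grainy head) is a regulator of epidermal genes, Zld (Zelda) activates the zygotic genome of the early embryo, and Twi (Twist) specifies mesoderm. There were 18 libraries in 9 groups of 2. The induced Grh line was labelled 100 mM copper sulphate and was accompanied by the same line without copper, called uninduced, and by wild-type S2 cells at 100 µM. The induced Zld line was labelled 1000 mM and was accompanied by its uninduced line and by wild-type cells at 1000 µM. The induced Twi line received 40 µM and was set against wild-type cells at 40 µM, with no uninduced Twi library analysed here. Wild-type cells without copper, called untreated, served all 3 tables. The labels print the doses of the induced Zld and Grh lines in mM and those of wild type and Twi in µM, and the groups were matched by the printed number. The labels name neither the promoter of the transgenes nor whether a line is 1 clone, and they do not say whether replicates were separate cultures, so p-values measure the spread between these libraries.

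Library totals ran between 10459648 and 28575923 counted reads, so that 3 counts, taken as the limit that a count of 0 allows, correspond to 0.105 to 0.287 CPM, that is counts scaled to a library total of 1000000. These limits and the count intervals below cover counting error only. The induced factor was checked first. In CPM, grh averaged 999 ± 20.9 in induced Grh cells, 40.4 ± 5.87 in uninduced Grh cells and 0.290 ± 0.0437 in wild-type cells at 100 µM (SD, n = 2 each). The zld gene averaged 5357 ± 206 CPM in induced Zld cells, 260 ± 65.3 CPM in uninduced Zld cells and 1.33 ± 0.334 CPM in wild-type cells at 1000 µM, and twi 1776 ± 256 CPM in induced Twi cells against 0.296 ± 0.0716 CPM in wild-type cells at 40 µM (SD, n = 2 each). Both uninduced lines thus carried the factor's transcript above its wild-type level. The hemocyte list had counts for 11 of 11 genes and the epithelial list for 8 of 8 in every group. The hemocyte list summed to 2563 to 2614 CPM in induced Grh cells against 3167 to 3191 in wild-type cells at 100 µM, to 2044 to 2135 in induced Zld cells against 3115 to 3201 at 1000 µM, and to 5154 to 6589 in induced Twi cells against 2741 to 3583 at 40 µM. Of its 11 genes, 3 were called higher and 5 lower in the Grh comparison (median log2 change -0.38), 8 lower in the Zld comparison (-1.04), and 2 higher and 4 lower in the Twi comparison (-0.62), where the sum and the median thus differ in direction. The epithelial list summed to 1365 to 1371 CPM in induced Grh cells against 1308 to 1358 in wild-type cells at 100 µM, with 3 of 8 genes called higher and 1 lower. It summed to 874 to 881 CPM in induced Zld cells against 1159 to 1199 at 1000 µM, with 1 higher and 2 lower. In induced Twi cells it summed to 869 to 913 CPM against 1213 to 1255 at 40 µM, with 7 lower. Over all genes tested, 33.6% were called higher and 27.2% lower in the Grh comparison. These shares were 19.1% and 17.3% in the Zld comparison, and 6.25% and 4.27% in the Twi comparison. The 5 listed genes of the metallothionein family, which copper induces, summed to 2004 to 2053 CPM in induced Grh cells against 769 to 901 in wild-type cells at 100 µM. They summed to 4670 to 4814 in induced Zld cells against 7636 to 8463 at 1000 µM, and to 534 to 573 in induced Twi cells against 821 to 855 at 40 µM. These sums were mostly MtnA, which averaged 2025 CPM in induced Grh cells, while MtnC had 0 counts in every group. The part of these differences in the results below was not tested.

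Induction of Grh was accompanied by higher levels of nearly the whole set, with Cht2, obst-E, kkv, verm and Cda4 changing most. Induction of Zld was accompanied by higher kkv, rtv, Cda5 and Cht2 and lower mmy, and induction of Twi by higher Cda5 and Cht2. Of the 10 members, 7 had their highest group mean in induced Grh cells, while rtv was highest in induced Zld cells, Cda5 in induced Twi cells and knk in wild-type cells at 100 µM. In whole populations of cells, fewer cells of a kind and less RNA per cell cannot be told apart.

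Calls below come from edgeR's quasi-likelihood test with Benjamini-Hochberg adjustment over all genes tested, at an adjusted p below 0.05. The standard error (SE) beside a log2 change was derived from the F of that test. Where a group had few counts, it can be smaller than the counting error and does not measure how precisely the change is known. A gene entered a test only if it passed a filter on low counts, so a member or further listed gene seen mainly in 1 group could pass only through that group. The members and lists were also chosen with earlier results of these data known. For both reasons the counts and medians of members and lists are a description. In induced Grh cells against wild-type cells at 100 µM, 9 members were tested and 8 were higher, where 33.6% of all 8666 genes tested were higher and 27.2% lower. The median log2 change of those 9 members was 5.31, beside 0.05 for all genes tested, and it was the same with Cda4 at its lower bound. Against uninduced Grh cells, all 9 members tested were higher, where 16.7% of genes tested were higher and 10.6% lower. In induced Zld cells against wild-type cells at 1000 µM, 7 members were tested, of which 4 were higher and mmy was lower, beside 19.1% of 8780 genes higher and 17.3% lower. Against uninduced Zld cells the counts were the same 4 higher and 1 lower of 7, beside 23% higher and 20.1% lower. In induced Twi cells against wild-type cells at 40 µM, 4 members were tested and 2 were higher, beside 6.25% of 8909 genes higher and 4.27% lower. The comparisons of an induced line with wild type and with its own uninduced line share the induced libraries.

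**Figure D1:**
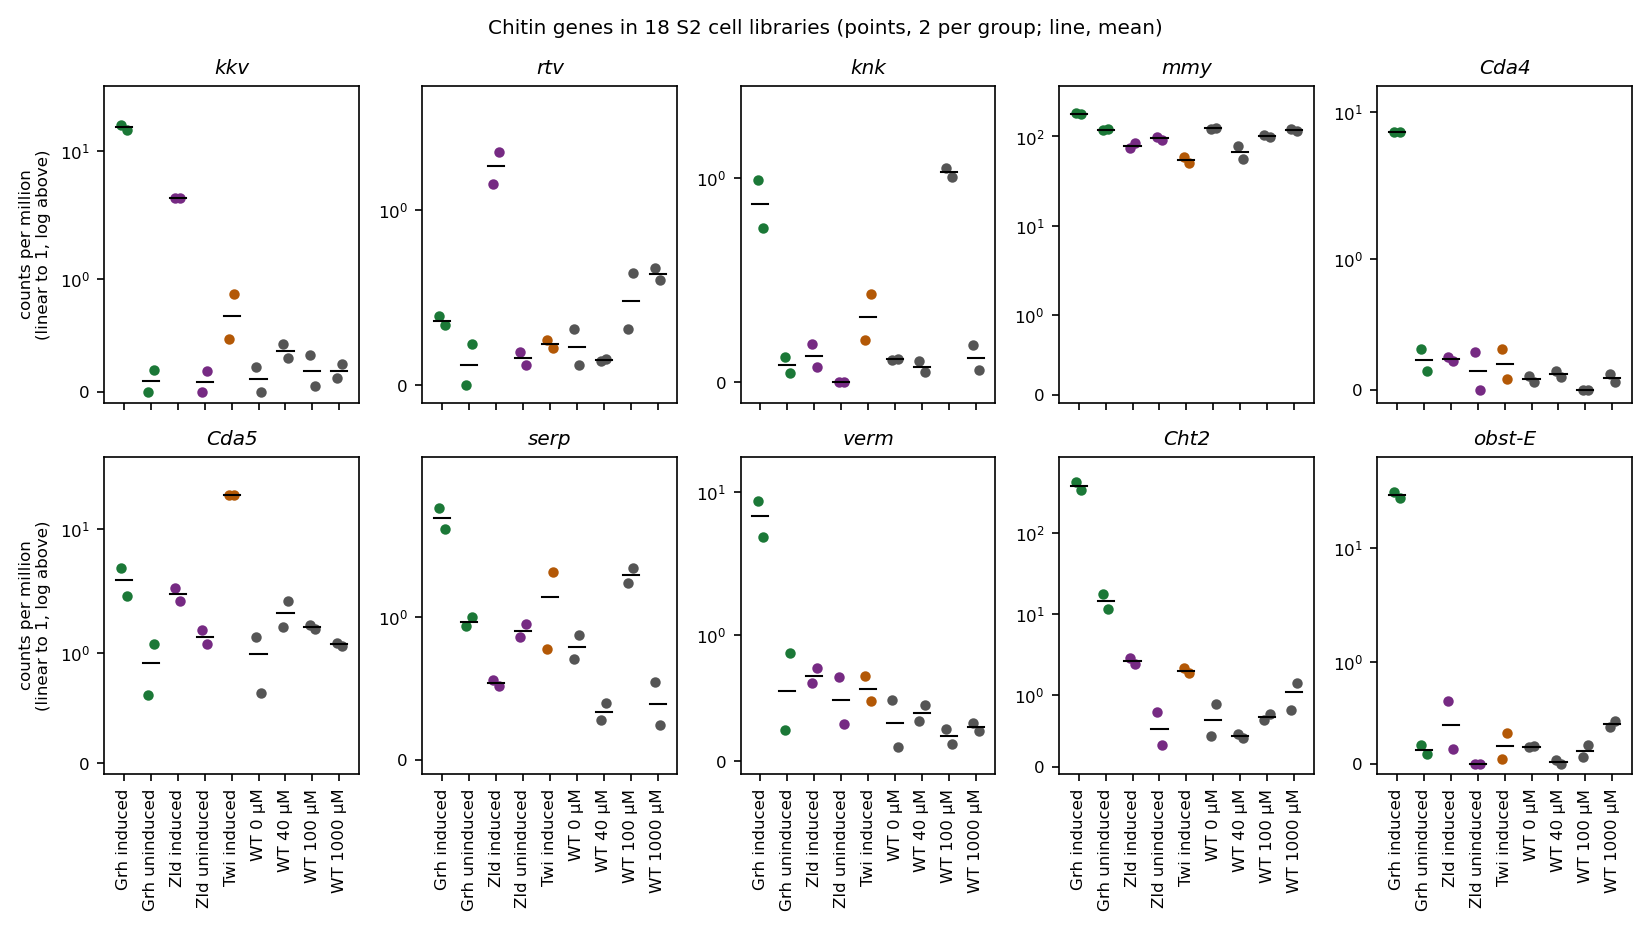
Level of each of the 10 members in CPM, 1 point per library and a bar at the mean of 2 libraries, for the 9 groups, on an axis that is linear up to 1 and logarithmic above it. Cht2 reached 427 and 335 CPM in induced Grh cells, Cda5 18.9 and 18.8 CPM in induced Twi cells, and mmy was above 50 CPM in every library.

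The supply of the sugar came first. The gene mmy (mummy, FBgn0259749, dm6 chromosome 2L, 6468538 to 6473904) encodes the pyrophosphorylase that makes UDP-N-acetylglucosamine, which also feeds the glycosylation of proteins. It was the one member expressed throughout, at 183 and 178 CPM in induced Grh cells, 117 and 122 CPM in uninduced Grh cells, and 103 and 99.7 CPM in wild-type cells at 100 µM. Both induced libraries lay above all 16 others. The log2 change was 1.00 ± 0.05 (SE) against wild type (adjusted p = 1.82e-10) and 0.63 ± 0.05 against the uninduced line (adjusted p = 1.02e-07). After Zld induction mmy had 73.8 and 84.6 CPM, against 99.1 and 91.5 CPM in uninduced Zld cells and 120 and 116 CPM in wild-type cells at 1000 µM. It was thus lower than in both, by log2 changes of -0.48 ± 0.07 against wild type (adjusted p = 0.00066) and -0.24 ± 0.07 against the uninduced line (adjusted p = 0.0230). The second of these calls was lost without induced Zld replicate 1 (log2 change -0.15, adjusted p = 0.209), with DESeq2 (adjusted p = 0.0529) and in the fit of all 18 libraries (adjusted p = 0.0718). In induced Twi cells it had 58.4 and 51.0 CPM, against 77.5 and 55.9 CPM in wild-type cells at 40 µM, and the difference of -0.31 ± 0.16 did not pass (adjusted p = 0.273), although it did without replicate 2 of that wild type (-0.54, adjusted p = 0.0128).

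The synthase gene kkv (krotzkopf verkehrt, FBgn0001311, 3R, 5378093 to 5392866) encodes the enzyme that builds the chitin of the cuticle and trachea. It was close to silent outside 2 groups. It had 16.2 and 14.9 CPM (544 counts together) in induced Grh cells, 0 and 0.190 CPM (4 counts) in uninduced Grh cells, and 0.323 and 0.0458 CPM (6 counts) in wild-type cells at 100 µM. With Zld induced it had 4.32 and 4.27 CPM (128 counts), against 0 and 0.178 CPM (3 counts) in uninduced Zld cells and 0.121 and 0.241 CPM (6 counts) in wild-type cells at 1000 µM. The induced Grh libraries were the highest of all 18 and the induced Zld libraries the next. Over the 8 wild-type libraries the lowest level was 0, the median 0.228 and the highest 0.420 CPM. The log2 change in induced Grh cells was 6.70 ± 0.34 against wild type (adjusted p = 5.48e-10) and 7.13 ± 0.37 against the uninduced line (adjusted p = 1.31e-09). In induced Zld cells it was 4.60 ± 0.46 against wild type (adjusted p = 4.06e-05). Against the 3 counts of the uninduced Zld line the ratio was 39.1 (95% exact interval of the counts 13.1 to 192, adjusted p = 3.07e-05). With 0.468 and 0.862 CPM in induced Twi cells and 0.420 and 0.297 CPM in wild-type cells at 40 µM, the gene did not pass the filter of the Twi comparison.

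The partners of the synthase, rtv and knk, stayed below 2 CPM in all 18 libraries. The gene rtv (retroactive, FBgn0261277, X, 11152484 to 11153990) encodes a small membrane protein needed for ordered chitin, and 8.56% of its exonic bases are shared with Lint-1 on the other strand. Since the libraries do not mark strand, reads in that stretch cannot be assigned, and Lint-1 itself lay between 49.1 and 70.0 CPM in all 18 libraries. The induced Zld cells had, for rtv, 1.36 and 1.99 CPM (49 counts), against 0.191 and 0.119 CPM (4 counts) in uninduced Zld cells and 0.668 and 0.602 CPM (21 counts) in wild-type cells at 1000 µM. Both induced Zld libraries exceeded all others. The log2 change was 3.45 ± 0.54 against the uninduced line (adjusted p = 0.000557) and 1.47 ± 0.38 against wild type (adjusted p = 0.0131). The second call was lost with DESeq2 (adjusted p = 0.162) and without induced Zld replicate 2 (0.118) or wild-type replicate 1 (0.104) or 2 (0.133). In Grh cells rtv was not tested, with 0.395 and 0.344 CPM after induction, 0 and 0.238 CPM without, and 0.323 and 0.641 CPM in wild-type cells at 100 µM: the induced libraries lay above the uninduced ones and inside the range of wild type.

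The gene knk (knickkopf, FBgn0001321, 3R, 10122365 to 10125664) encodes a membrane-anchored protein that organises and protects the chitin fibrils. Of its exonic bases 64.02% are shared with the antisense gene asRNA:CR46038, which had 0 counts in all 18 libraries. As for rtv, reads in the shared stretch cannot be assigned to a strand, and the counting settings are not given. The 0 counts thus do not show that the antisense gene was silent, and the levels of knk may be understated. With 0.988 and 0.756 CPM (31 counts) in induced Grh cells and 0.124 and 0.0475 CPM (3 counts) in uninduced Grh cells, the ratio of counts per library size was 11.03 (exact interval 3.44 to 56.4, adjusted p = 0.000567). In wild-type cells at 100 µM, however, the level was 1.10 and 1.01 CPM (39 counts), above both induced Grh libraries. The log2 change against that wild type was -0.07 ± 0.37 and did not pass (adjusted p = 0.893), whereas against untreated wild type, at 0.108 and 0.116 CPM, it was 3.04 (adjusted p = 0.000352). The result for knk after Grh induction therefore turned on the control. In induced Zld cells the level was 0.185 and 0.0735 CPM, against 0 and 0 CPM in uninduced Zld cells and 0.182 and 0.0602 CPM in wild-type cells at 1000 µM, and the gene did not pass the filter. At 0.208 and 0.431 CPM in induced Twi cells and 0.105 and 0.0495 CPM in wild-type cells at 40 µM it did not pass it either.

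The 4 deacetylase genes differed among themselves. The genes serp (serpentine, FBgn0260653, 3L, 19700977 to 19708015) and verm (vermiform, FBgn0261341, 3L, 19690033 to 19695260) encode secreted chitin deacetylases that limit the length of tracheal tubes. They lie on the same strand 5717 bases apart with 0 protein-coding genes between them. For serp, the level was 4.79 and 3.51 CPM in induced Grh cells, 0.934 and 0.998 CPM in uninduced Grh cells, and 1.62 and 2.01 CPM in wild-type cells at 100 µM. For verm, it was 8.65 and 4.88 CPM in induced Grh cells, 0.249 and 0.855 CPM in uninduced Grh cells, and 0.259 and 0.137 CPM in wild-type cells at 100 µM. The induced Grh libraries were the 2 highest of all 18 for both genes. The log2 change of serp was 1.36 ± 0.25 against wild type (adjusted p = 0.000208) and 2.15 ± 0.28 against the uninduced line (adjusted p = 1.92e-05). That of verm was 5.31 ± 0.51 (adjusted p = 2.72e-06) and 3.58 ± 0.42 (adjusted p = 4.18e-05). Against wild type the change of verm was thus larger than that of its neighbour serp, a difference that was not itself tested.

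Neither gene was called after Zld induction. With 0.556 and 0.515 CPM in induced Zld cells and 0.546 and 0.241 CPM in wild-type cells at 1000 µM, serp had a log2 change of 0.54 ± 0.55 (adjusted p = 0.472). With 0.617 and 0.735 CPM in induced Zld cells and 0.304 and 0.241 CPM in wild-type cells at 1000 µM, verm had one of 1.38 ± 0.57 (adjusted p = 0.0817). In induced Twi cells serp had 0.779 and 1.90 CPM, against 0.280 and 0.396 CPM in wild-type cells at 40 µM. These groups did not overlap, but the log2 change of 1.99 ± 0.54 missed the threshold (adjusted p = 0.0620). It passed without the filter on low counts (0.00507), in the fit of all 18 libraries (0.00454) and with the replicate block (0.0210).

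Cda4 (FBgn0052499, X, 22583634 to 22632710) belongs to the same deacetylase family. It had 7.31 and 7.22 CPM (253 counts) in induced Grh cells, 0.311 and 0.143 CPM (8 counts) in uninduced Grh cells, and 0 counts in both libraries of wild-type cells at 100 µM. No other library exceeded 0.312 CPM. Against the limit of 3 counts over that wild-type group, Cda4 was at least 90.5-fold higher (adjusted p = 1.06e-09), and against the uninduced line the log2 change was 5.07 ± 0.34 (adjusted p = 1.25e-08). In the Zld and Twi comparisons it was not tested: induced Zld cells had 7 counts against 3 in wild-type cells at 1000 µM and 3 in the uninduced line, and induced Twi cells had 0.312 and 0.0862 CPM against 0.140 and 0.0989 CPM in wild-type cells at 40 µM.

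Cda5 (FBgn0051973, 2L, 25402 to 65404), another gene of the family, was highest in the Twi line. It had 18.9 and 18.8 CPM (801 counts) in induced Twi cells, against 1.61 and 2.62 CPM (99 counts) in wild-type cells at 40 µM. The groups were far apart, and the log2 change was 3.16 ± 0.29 (adjusted p = 0.000845). In induced Grh cells it had 4.84 and 2.89 CPM, against 0.622 and 1.19 CPM in uninduced Grh cells and 1.68 and 1.56 CPM in wild-type cells at 100 µM. The Zld line had 3.33 and 2.65 CPM after induction, against 1.53 and 1.19 CPM in uninduced Zld cells and 1.21 and 1.14 CPM in wild-type cells at 1000 µM. The induced Grh and induced Zld libraries overlapped each other and lay above every library other than those of Twi, with wild-type cells at 40 µM reaching 2.62 CPM just below the lowest induced Zld value. The log2 changes were 1.46 ± 0.30 for Grh (adjusted p = 0.000628) and 1.45 ± 0.29 for Zld against wild type (adjusted p = 0.00344), and 2.11 ± 0.33 (adjusted p = 0.000153) and 1.20 ± 0.30 (adjusted p = 0.00831) against the uninduced lines. Without induced Zld replicate 1 both Zld calls were lost, with log2 changes of 1.25 (adjusted p = 0.0513) and 1.00 (adjusted p = 0.0815), and the second was also lost with DESeq2 (adjusted p = 0.0834).

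Cht2 (FBgn0022702, 3L, 1752328 to 1755934) encodes a chitinase, an enzyme that cuts the polymer, and it reached the highest level of all members after Grh induction. It had 427 and 335 CPM (13515 counts) in induced Grh cells, 17.6 and 11.4 CPM (522 counts) in uninduced Grh cells, and 0.647 and 0.733 CPM (26 counts) in wild-type cells at 100 µM. These 3 groups were widely separated, and the uninduced Grh libraries were themselves above the other 14. The log2 change was 9.25 ± 0.42 against wild type (adjusted p = 0.000168) and 4.79 ± 0.27 against the uninduced line (adjusted p = 0.000922). Uninduced Grh cells exceeded untreated wild type, at 0.432 and 0.871 CPM, by 4.55 ± 0.66 (adjusted p = 0.00871). That call was lost without untreated wild-type replicate 1 (log2 change 4.11, adjusted p = 0.0665) or 2 (5.13, adjusted p = 0.0533). It was the one call among the 9 members tested between those groups, where 11.7% of genes tested were higher and 12% lower. Of the exonic bases of Cht2, 2.07% are shared with CG13921 on the other strand, which had 54.7 and 49.9 CPM in induced Grh cells, 7.53 and 5.13 CPM in uninduced Grh cells, and 1.29 and 1.28 CPM in wild-type cells at 100 µM.

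Smaller differences in Cht2 were found for the other factors. Induced Zld cells had 2.84 and 2.43 CPM (79 counts), against 0.765 and 0.297 CPM (13 counts) in uninduced Zld cells and 0.789 and 1.38 CPM (36 counts) in wild-type cells at 1000 µM. The log2 change was 2.46 ± 0.45 against the uninduced line (adjusted p = 0.0015) and 1.38 ± 0.37 against wild type (adjusted p = 0.0151). The call against wild type was lost with DESeq2 (adjusted p = 0.0930) and without induced Zld replicate 1 (0.133) or 2 (0.0529) or wild-type replicate 1 (0.166). Induced Twi cells had 2.13 and 1.85 CPM, against 0.455 and 0.396 CPM in wild-type cells at 40 µM, a log2 change of 2.18 ± 0.42 (adjusted p = 0.0179) that was lost without either induced Twi replicate (adjusted p = 0.110 without replicate 1 and 0.0868 without replicate 2).

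The chitin-binding gene obst-E (obstructor-E, FBgn0031737, 2L, 5762553 to 5766142) encodes a cuticle protein that orders chitin and shapes the body in Drosophila. It had 31.0 and 27.4 CPM (1026 counts) in induced Grh cells, 0.187 and 0.0950 CPM (5 counts) in uninduced Grh cells, and 0.0647 and 0.183 CPM (5 counts) in wild-type cells at 100 µM. No library of another group exceeded 0.617 CPM. Its uninduced Grh libraries overlapped the untreated wild type, which had 0.162 and 0.174 CPM (log2 change -0.21 ± 0.78, adjusted p = 0.888). The log2 change after Grh induction was 7.87 ± 0.24 against wild type (adjusted p = 3.04e-13) and 7.73 ± 0.25 against the uninduced line (adjusted p = 6.67e-13). With 5 counts in each of these controls, the standard errors come from the test and do not measure the precision of the change. In induced Zld cells obst-E had 0.617 and 0.147 CPM, against 0 and 0 CPM in uninduced Zld cells and 0.364 and 0.421 CPM in wild-type cells at 1000 µM, which lay inside the range of the induced libraries. It did not pass the filter of the Zld or the Twi comparisons.

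**Figure D2:**
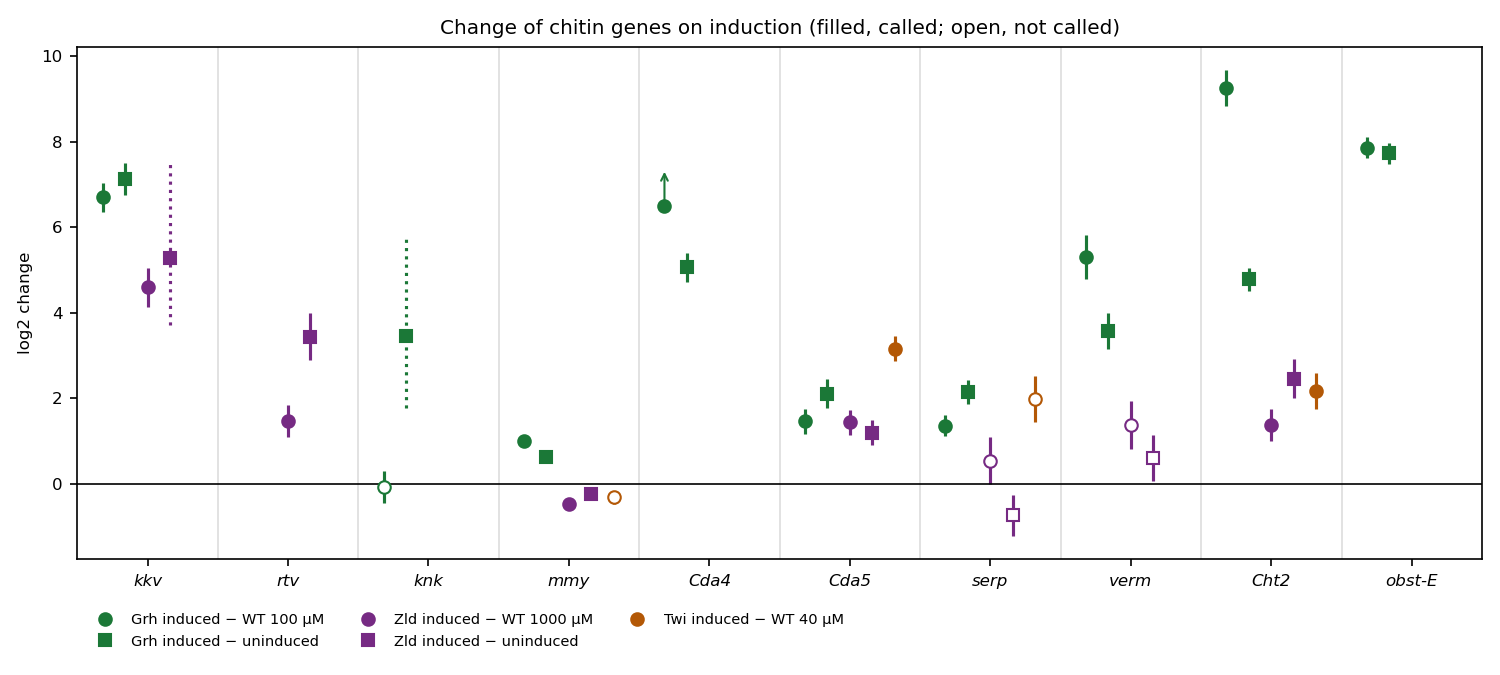
Log2 change for each member in the 5 comparisons of an induced line with wild type or with its own uninduced line. Each group had 2 libraries. Bars are standard errors derived from the test's F, which over few counts do not measure precision. Filled points had an adjusted p below 0.05. Dotted lines are exact count intervals of ratios against 1 to 3 counts, and the arrow on Cda4 marks a lower bound. Cht2 and obst-E lie highest, at 9.25 and 7.87 after Grh induction, and Cda5 has its largest change after Twi induction, at 3.16.

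Levels of different genes were compared on the RPKM scale, CPM divided by the deposited exonic length in kilobases. With mmy left out, the other 9 members summed to 171 and 136 RPKM in induced Grh cells, 6.64 and 4.97 RPKM in uninduced Grh cells, and 1.87 and 2.23 RPKM in wild-type cells at 100 µM. The sum was 4.09 and 4.09 RPKM in induced Zld cells, 1.31 and 0.831 RPKM in uninduced Zld cells, and 1.59 and 1.56 RPKM in wild-type cells at 1000 µM. In induced Twi cells it was 3.60 and 3.99 RPKM, against 0.857 and 0.955 RPKM in wild-type cells at 40 µM. Without mmy, the 3 induced groups thus had the highest sum within each of their tables. The leading member of the 9 was Cht2 in induced Grh cells, rtv in induced Zld cells and Cda5 in induced Twi cells. With mmy kept, that order held for Grh alone. All 10 members summed to 37.7 and 42.6 RPKM in induced Zld cells, against 46.5 and 42.5 RPKM uninduced and 56.2 and 54.6 RPKM in wild-type cells at 1000 µM. Induced Twi cells had 30.2 and 27.2 RPKM, against 36.2 and 26.4 RPKM in wild-type cells at 40 µM. Of the summed RPKM of all 10 members in induced Grh cells, Cht2 made up 53.0% ± 3.13 and mmy 35.1% ± 3.20, with obst-E at 6.86% ± 0.166 and kkv at 1.16% ± 0.0595 (SD, n = 2). In untreated wild type mmy made up 98.1% ± 0.294. In induced Zld cells the shares of rtv, Cht2 and kkv were 3.25% ± 0.587, 2.18% ± 0.428 and 1.88% ± 0.181 (SD, n = 2). In induced Twi cells those of Cda5 and Cht2 were 6.11% ± 0.431 and 2.28% ± 0.057 (SD, n = 2). Per length, then, chitinase transcript was more abundant than synthase transcript in induced Grh cells, at 141 and 110 RPKM for Cht2 and 2.84 and 2.60 RPKM for kkv.

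**Figure D3:**
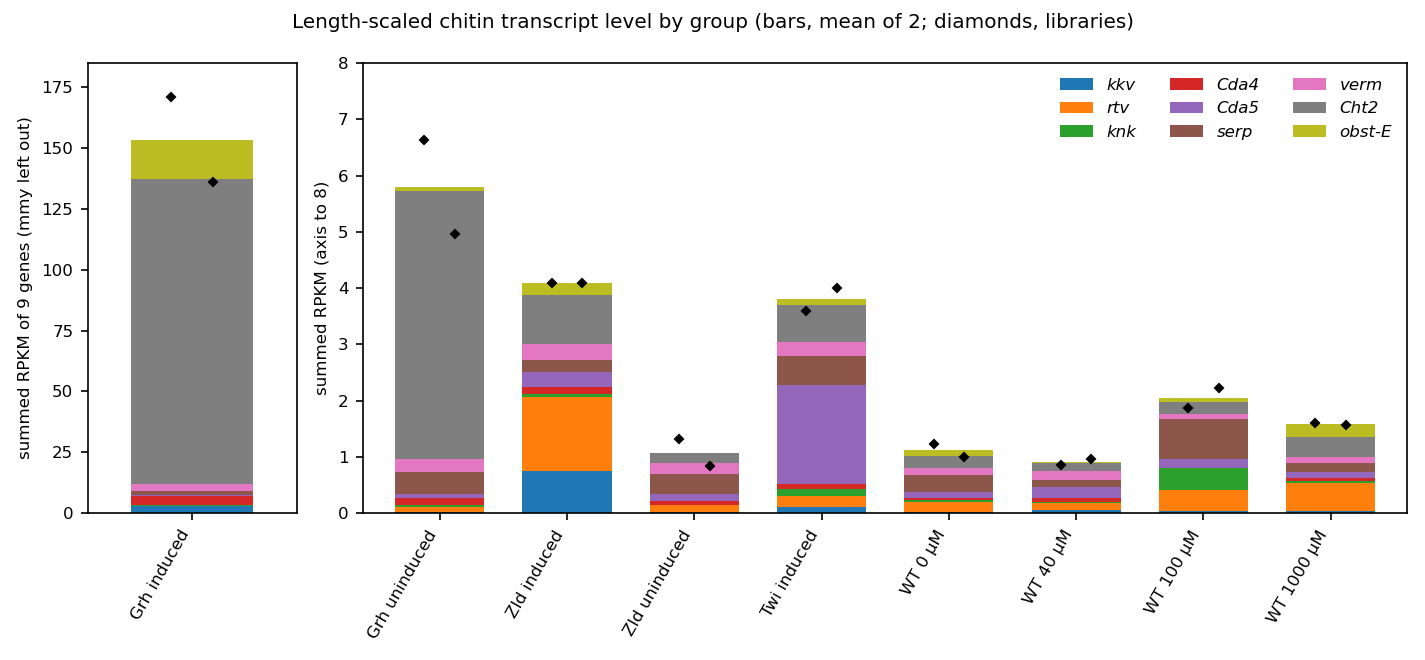
Summed RPKM of the 9 members other than mmy in each group, stacked by gene from the mean of 2 libraries, with a diamond for each library's sum; induced Grh cells have an axis of their own on the left, and the other 8 groups share the axis on the right, which ends at 8. Cht2 makes up most of the bar of both Grh groups, rtv, Cht2 and kkv most of the induced Zld bar, and Cda5 the largest part of the induced Twi bar.

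Few members were called between copper-treated and untreated wild type, but 6 of 10 were not tested at 40 µM, 1 at 100 µM and 3 at 1000 µM. Wild type at 40 µM differed from untreated wild type in mmy, with 77.5 and 55.9 CPM at 40 µM against 122 and 124 CPM untreated (log2 change -0.83 ± 0.16, adjusted p = 0.00638). It was the 1 call among 4 members tested, beside 20.8% of genes tested higher and 19.7% lower. Cda5, at 1.61 and 2.62 CPM at 40 µM against 1.35 and 0.639 CPM untreated, missed the threshold (1.10 ± 0.38, adjusted p = 0.0536) but passed it with DESeq2 (0.0220), without the filter (0.00255), in the fit of all 18 libraries (0.0218), with the replicate block (0.0458) and without replicate 1 of either group (0.0139 and 0.0491). At 100 µM, 9 members were tested. Of these, knk was higher (3.12 ± 0.55, adjusted p = 0.000158), serp was higher (1.20 ± 0.33, adjusted p = 0.0057) and mmy was lower (-0.31 ± 0.05, adjusted p = 8.78e-05), beside 25.4% of genes tested higher and 27% lower. The serp call was lost without replicate 2 of the wild-type cells at 100 µM (adjusted p = 0.0729) or replicate 1 of the untreated wild type (0.0557), and the mmy call in the fit of all 18 libraries (0.0516). At 1000 µM, edgeR called 0 of 7 members tested, beside 15.3% of genes tested higher and 13.9% lower; 1 of the 7 had an unadjusted p below 0.05, and DESeq2 called 0. The levels had no common direction with dose: knk was 0.108 and 0.116 CPM untreated, 0.105 and 0.0495 CPM at 40 µM, 1.10 and 1.01 CPM at 100 µM, and 0.182 and 0.0602 CPM at 1000 µM.

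Without copper, the uninduced Zld line differed from untreated wild type in mmy alone of 7 members tested (-0.28 ± 0.07, adjusted p = 0.0111), beside 10.4% of genes tested higher and 10.2% lower. That call was lost in the fit of all 18 libraries (adjusted p = 0.103) and without untreated wild-type replicate 1 (0.0543) or 2 (0.0935). The test of whether copper acted differently in a line than in wild type called 6 of 9 members for Grh, all larger in the Grh line, beside 24.1% of genes tested larger and 19.2% smaller. These were mmy, kkv, verm, Cda4, Cda5 and obst-E. Without replicate 1 of the untreated wild type the calls of kkv (adjusted p = 0.924), verm (0.281) and Cda5 (0.373) were lost, and the Cda5 call was kept under 6 of 15 alternatives. For Cht2 the difference of the 2 copper effects was 4.70 ± 1.63, and it missed the threshold (adjusted p = 0.0789). It passed under 8 of the 15 alternatives run, among them DESeq2 (2.12e-11) and the replicate block (3.32e-05). For the Zld line edgeR called 0 of 7 members, beside 5.96% of genes tested larger and 6.54% smaller; 2 of the 7 had an unadjusted p below 0.05, and DESeq2 called 1, kkv (adjusted p = 0.0266).

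The effects of the 3 factors, each taken against wild type at its copper dose, were compared in a fit of all 18 libraries. The Grh effect was larger than the Zld effect for 5 of 10 members, beside 20.6% of 9521 genes tested larger and 22% smaller. These were Cht2 (log2 difference 7.82 ± 0.76, adjusted p = 2.81e-06), obst-E (7.69 ± 0.92, adjusted p = 7.93e-06), verm (3.86 ± 1.03, adjusted p = 0.00648), mmy (1.43 ± 0.16, adjusted p = 3.86e-06) and Cda4 (adjusted p = 0.00293). For kkv the difference of 2.02 ± 1.16 missed the threshold (adjusted p = 0.179), as did that of Cda5, at -0.04 ± 0.48 (adjusted p = 0.958). Against the Twi effect, the Grh effect was larger for mmy, kkv, verm, Cda4 and Cht2 and smaller for Cda5 (-1.76 ± 0.43, adjusted p = 0.00378), beside 18.5% of genes tested larger and 21.6% smaller. For kkv that difference was 5.78 ± 0.94 (adjusted p = 0.000132). The obst-E difference of 5.00 ± 2.53 was not called (adjusted p = 0.131), with DESeq2 giving 0.0162. The Zld effect exceeded the Twi effect for kkv (3.76 ± 0.95, adjusted p = 0.0096) and fell below it for Cda5 (-1.72 ± 0.47, adjusted p = 0.0157), beside 11.1% of genes tested larger and 10% smaller. The kkv call was lost without replicate 1 of wild-type cells at 1000 µM (adjusted p = 0.0539). The Cda5 call was lost without that library (0.0739), without its replicate 2 (0.0572) and without induced Zld replicate 2 (0.0545).

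The rest of the pathway was followed through lists of 46 further genes found in the tables. Those called with at least a 2-fold change are named, at most 4 per list and comparison, largest absolute change first. In the breakdown list, 12 chitinases and hexosaminidases other than Cht2, 8 were tested after Grh induction against wild type, of which 4 were higher and 1 lower, beside 33.6% of all genes tested higher and 27.2% lower, with a median log2 change of 0.77 beside 0.05 for all genes. Cht5, a chitinase of the moulting cuticle, averaged 10.2 ± 0.395 CPM in induced Grh cells and 0.0916 ± 0.129 CPM in wild-type cells at 100 µM (SD, n = 2 each; log2 change 6.66 ± 0.37, adjusted p = 2.90e-10). Cht10, another chitinase, was higher by 1.94 ± 0.25 (adjusted p = 5.99e-06) and Hexo1, a hexosaminidase that splits the fragments into single sugars, by 1.80 ± 0.08 (adjusted p = 4.56e-10). Hexo2, of the same enzyme family, was higher by 1.15 ± 0.07 against wild-type cells at 100 µM (adjusted p = 6.34e-10). Against untreated wild type, however, its log2 change was -0.01 (adjusted p = 0.907), with mean levels of 832 ± 65.9 CPM in induced Grh cells and 920 ± 37.6 CPM in untreated wild type (SD, n = 2 each).

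Among 11 other chitin-binding genes, 5 were tested after Grh induction against wild type and 4 were higher, beside the same 33.6% of all genes tested, with a median log2 change of 4.85. Those 4 had 1 to 11 counts in wild-type cells at 100 µM and could not pass the filter on these alone. Their count and median are thus a description. The obst-A gene, for a scaffold protein of the chitin matrix, averaged 32.8 ± 6.81 CPM in induced Grh cells and 0.137 ± 0.194 CPM in wild-type cells at 100 µM (SD, n = 2 each; 7.79 ± 0.37, adjusted p = 5.38e-08). Its neighbour in the same family, Peritrophin-A, was higher by 4.85 ± 0.32 (adjusted p = 2.26e-09). The other two rest on few wild-type counts. For obst-B there were 87 counts in induced Grh cells against 1 in wild type, a ratio of 93.3 (exact interval 16.3 to 3727, adjusted p = 6.78e-07). For Gasp, a gene of the tracheal chitin matrix, there were 21 against 3, a ratio of 7.51 (2.24 to 39.3, adjusted p = 0.0176), and the call was lost with DESeq2 (0.0836), without induced Grh replicate 1 (0.396), without wild-type replicate 1 (0.0837) or 2 (0.0926), and against untreated wild type (0.188).

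Of 8 further genes of sugar supply, 7 were tested after Grh induction, 3 were higher and 1 lower, shares near the 33.6% higher and 27.2% lower of all genes tested, and the median log2 change was 0.14. Gfat1, an aminotransferase of the first step of hexosamine synthesis, had 61 counts in induced Grh cells against 0 in wild-type cells at 100 µM, at least 21.8-fold higher (adjusted p = 2.88e-06). Its paralog Gfat2 was far more abundant, with group means between 249 and 339 CPM. Hex-A, a hexokinase, averaged 121 CPM in induced Grh cells against 376 CPM in wild-type cells at 100 µM (-1.47 ± 0.05, adjusted p = 2.31e-12); against uninduced Grh cells, at 145 CPM, the change was -0.23 ± 0.06 (adjusted p = 0.00555). Of 11 genes for apical matrix proteins with a zona pellucida domain, 5 were tested, 1 was higher and 1 lower, against that same background, with a median of 0.47. These were m (miniature), at 1.97 ± 0.17 (adjusted p = 2.06e-07), and dpy (dumpy), which anchors the epidermis to the cuticle, at -1.67 ± 0.07 (adjusted p = 2.52e-11). Against untreated wild type the change of m was -0.09 (adjusted p = 0.629), and against uninduced Grh cells dpy changed by -0.22 ± 0.07 (adjusted p = 0.0321).

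After Zld induction the second chitin synthase gene moved. Chs2, which makes the chitin of the gut lining, averaged 3.61 ± 0.836 CPM (109 counts) in induced Zld cells and 0.151 ± 0.0437 CPM (5 counts) in wild-type cells at 1000 µM (SD, n = 2 each; 4.61 ± 0.47, adjusted p = 8.79e-05). It was at least 33.3-fold higher than in the uninduced Zld line, which had 0 counts. In induced Grh cells Chs2 had 0 counts as well, against 544 for kkv, and the test between the Grh and Zld effects called Chs2 lower for Grh (adjusted p = 0.00118). The other synthase partners listed, exp and reb, are needed for chitin deposition; 2 of the 3 genes of that list were tested after Zld induction and Chs2 was the one called. The apical matrix gene zye had 525 ± 24.7 CPM in induced Zld cells and 3.60 ± 0.278 CPM in wild-type cells at 1000 µM (SD, n = 2 each; 7.29 ± 0.11, adjusted p = 5.12e-11), and 3 of the 5 genes of that list tested were higher. Hexo2 was lower (-1.27 ± 0.08, adjusted p = 1.56e-06), the 1 call of 7 tested in the breakdown list, and obst-J, of the chitin-binding list, was lower (-1.37 ± 0.27, adjusted p = 0.0028), the 1 call of 2 tested. Against uninduced Zld cells obst-J was higher (1.40 ± 0.39, adjusted p = 0.015), so its direction turned with the control. Of 7 sugar supply genes tested, 1 was lower. Over all genes tested in this comparison, 19.1% were higher and 17.3% lower.

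After Twi induction, 3 of these further genes were called, each with at least a 2-fold change. Tested were 7 breakdown, 2 chitin-binding, 7 sugar supply and 6 apical matrix genes and 1 synthase partner. Over all genes tested, 6.25% were called higher and 4.27% lower at any size. Hexo2 averaged 159 ± 26.0 CPM in induced Twi cells and 364 ± 109 CPM in wild-type cells at 40 µM (SD, n = 2 each; -1.21 ± 0.21, adjusted p = 0.014), Cht10 was higher (1.03 ± 0.24, adjusted p = 0.0386) and Peritrophin-15a lower (-1.74 ± 0.43, adjusted p = 0.0481). The Hexo2 call was lost without the filter on low counts (adjusted p = 0.134) and without induced Twi replicate 2 (0.106). The Cht10 call was lost with DESeq2 (0.0736) and without induced Twi replicate 1 (0.145) or 2 (0.197) or wild-type replicate 1 (0.0797), and the Peritrophin-15a call with library-size scaling (0.0512), a minimum count of 30 (0.0546) and without induced Twi replicate 1 (0.139) or wild-type replicate 2 (0.0727).

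**Figure D4:**
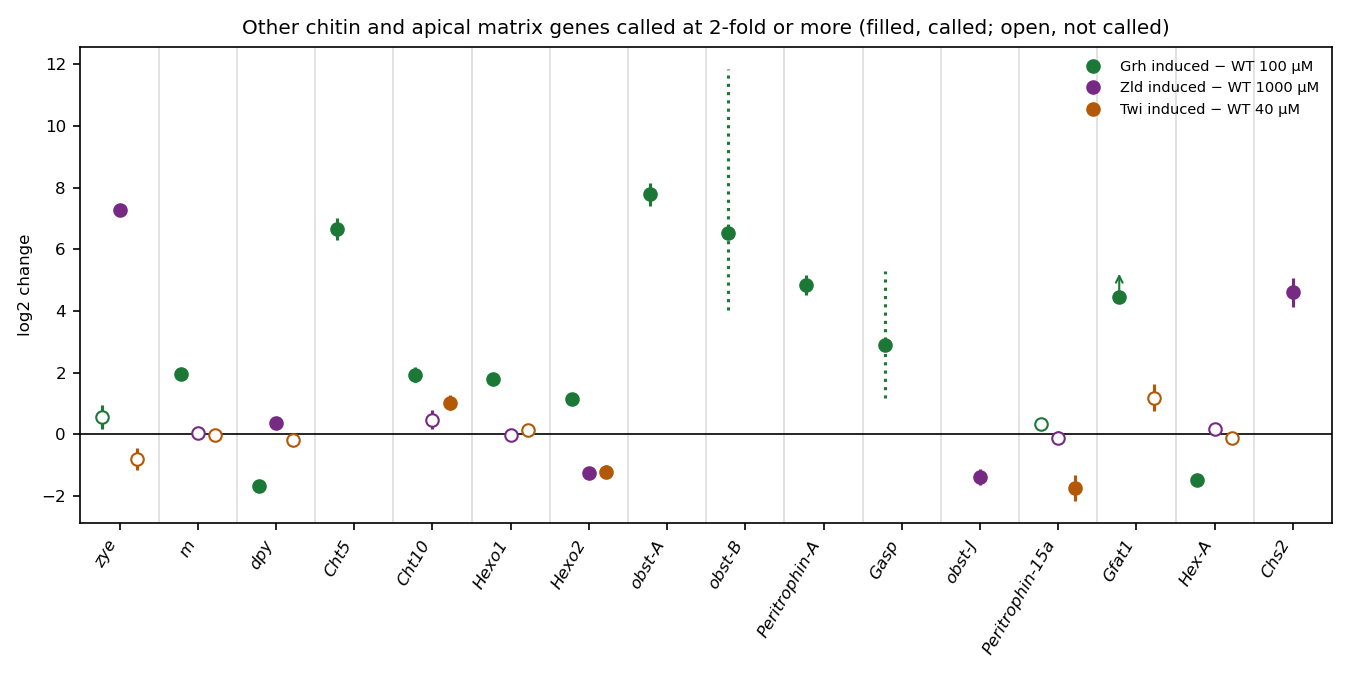
Log2 change of further genes of chitin supply, synthesis, breakdown and binding that were called with at least a 2-fold change. At most 4 per list and comparison were chosen, by size of change. Induced Grh, Zld and Twi cells are each set against wild type at the matched copper dose, with 2 libraries a group. Bars are standard errors derived from the test's F, which over few counts do not measure precision. Filled points had an adjusted p below 0.05, dotted lines are exact count intervals of ratios and the arrow marks a lower bound; obst-A and Cht5 lie highest after Grh induction and zye after Zld induction.

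The profile of 2 members over the 18 libraries was set against all 7947 genes with a mean of at least 1 CPM, by Pearson's correlation of log2 CPM, as a description: the libraries share the induced groups, which set most of the variation. Nearest to kkv were CG11275 (r = 0.949), kmr (0.941), CG16700 (0.926), CG7702 (0.922) and EbpIII (0.922), genes with their higher levels in both the induced Grh and the induced Zld cells. CG11275, for example, averaged 34.3 CPM in induced Grh cells and 17.4 CPM in induced Zld cells. No single library of another group exceeded 7.76 CPM. Nearest to Cht2 were grh itself (r = 0.968), bero (0.962), CG17919 (0.961), CG6959 (0.960) and goe (0.959). These 4 genes other than grh averaged between 50.2 and 74.0 CPM in induced Grh cells and between 0.301 and 1.66 CPM in induced Zld cells. No single library of another group exceeded 11.3 CPM.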

How the data were processed

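RNA of 18 S2 cell libraries was sequenced from poly-A-selected material prepared with a TruSeq v2 kit, per the labels' protocols, which does not mark strand. The deposited tables hold counts of reads per gene and, as an other column, each gene's exonic length. The submitters' processing notes name HISAT2 2.1.0, featureCounts, Subread 2.0, DESeq2 and the dm6 genome; the annotation release and counting settings are not given in the sources used here. The 2 untreated wild-type columns, repeated in 3 tables, were identical (4 of 4 repeats) and used once. Symbols and positions came from an Ensembl annotation of dm6, which matched 17561 of 17609 genes, with exon length equal to the deposited length for 17541. Of 93 listed symbols, 92 matched; Cda3 did not. Promoter and protein sequences were not used here.

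From the counts, genes passing filterByExpr (minimum count 10) were fitted with edgeR 4.0.16 in R 4.3.3: TMM scaling, robust quasi-likelihood F test, and p-values adjusted after Benjamini-Hochberg across every tested gene. A standard error is the absolute log2 change divided by the square root of F. It restates the test, and over few counts it does not measure the precision of the change. Each comparison used the libraries of its factor's table (6, or 8 with untreated wild type), and differences between factor effects used all 18. CPM is counts scaled to a library total of 1000000; RPKM divides it by the deposited length. Where a group had 0 counts, a lower bound was taken at 3 counts over the group; with 1 to 3 counts the ratio has a 95% Clopper-Pearson interval. Genes of the pathway lists were named when called with at least a 2-fold change against wild type at the matched copper dose. At most 4 per list and comparison were named by this rule, those with the largest absolute change. The members and lists were chosen with earlier results of these data known. The fit was tested on simulated counts, with changes put only into genes with a mean above 1 CPM. That setting does not cover the few control counts and large changes of most members. Alternatives were RLE factors, library size alone, no filter, a minimum count of 30, DESeq2 1.42.0, more libraries in the fit, the replicate number as a block, untreated wild type as control, and leaving out each library.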

Additional observations from a re-analysis of the deposited data

Results flagged for a closer look

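Copper was followed by a different change in the Grh line than in wild type for 6 of 9 members tested. Over all genes tested, the change was called larger in the Grh line for 24.1% and smaller for 19.2%. The test of the difference between the effect of copper, labelled 100, in the Grh line and in wild type (edgeR, Benjamini-Hochberg adjusted over all genes tested) gave an adjusted p of 2.01e-08 for mmy, 1.87e-05 for obst-E, 0.000624 for Cda4, 0.0097 for verm, 0.00979 for kkv and 0.0465 for Cda5. In all 6 the level after copper relative to that without was larger in the Grh line, where mmy averaged 180 CPM with copper and 120 CPM without, against 101 and 123 CPM in wild type. Without replicate 1 of the untreated wild type the calls of kkv (adjusted p = 0.924) and verm (0.281) were lost, and that of Cda5 was kept under 6 of 15 alternatives.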

How the results depend on the processing

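With 2 libraries a group and most members at few counts outside the induced lines, an uncalled member is not shown to be unchanged. All 8 calls of induced Grh cells against wild type and all 9 against the uninduced line were kept under every alternative run. Over members and the further genes named, 139 results had a test and 75 were called. Of 1770 alternative values, 12 became called and 37 lost their call when a library was left out, and 16 and 17 did under other settings; 3 values called in at least 1 of the fits compared turned direction. Library-size scaling put the median log2 change of all genes at -0.12 for induced Grh cells and -0.084 for induced Zld cells against wild type, at -0.10 for both uninduced lines, and at -0.15 and -0.12 for the Grh and Zld effects against the Twi effect, and turned the direction of no called gene.

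With untreated wild type as control for induced Grh cells, the log2 change was 3.04 for knk, -0.0922 for m and -0.0115 for Hexo2; the cause was not tested. DESeq2 called 3 members, not 5, for induced Zld cells against either control, 2, not 1, for wild type at 40 µM, and 1, not 0, for the difference in copper effect between the Zld line and wild type. Without the filter on low counts the last of these counts was also 1, and that for wild type at 40 µM was 2, as it was with all 18 libraries and with the replicate block. The uninduced Zld line had 0 members called with all 18 libraries. Leaving out 1 library gave, for induced Zld cells, 3 to 4 members against wild type and 3 to 6 against the uninduced line, 1 to 3 for induced Twi cells, 1 to 2 for wild type at 40 µM, 0 to 1 for either uninduced line and for copper in the Zld line, 3 to 7 for copper in the Grh line, and 0 to 3 for the Zld effect against the Twi effect. The lowest counts came without replicate 1 of the untreated wild type (Grh line) and without replicate 1 of wild-type cells at 1000 µM (Zld against Twi).

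Deviations of same-numbered replicates correlated between -0.20 and 0.52 over the pairs of groups. The highest value was for induced Twi cells and wild-type cells at 40 µM, and the next was 0.33. With 2 pairs the numbers do not establish pairing. In that Twi comparison 1404 genes were called with the replicate block and 937 without it. Among members, the replicate block moved the count of calls to 2 for wild type at 40 µM and to 3 for induced Twi cells. A crossed block, added after seeing the data, gave 5, 9 and 1 member calls for induced against uninduced Zld cells, induced against uninduced Grh cells and the uninduced Grh line. Where a comparison was already fitted on all libraries of a table, or on all 18, those alternatives gave no separate value.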
